A study of Mus musculus with 29 samples.

Results

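The 10 genes described here belong to the Notch pathway in the mouse aortic arch: the receptors Notch1, Notch2, Notch3 and Notch4, the ligands Jag1, Jag2 and Dll4, and the target genes Hey1, Hey2 and Heyl. They were taken by symbol from the 51456 genes in the table of each library, without regard to their values, and all 10 were found in each library. RNA sequencing was performed on 29 libraries in a cardiovascular safety study of an antibody to sclerostin (Scl-Ab), a secreted inhibitor of Wnt signalling. The Vehicle group (n = 9) came from apolipoprotein E knockout (ApoE KO) mice with a subcutaneous pump that delivered angiotensin II (AngII) from a solution of 15.27 mg/mL at a rate of 0.11 µL/hr, followed by weekly vehicle injections. The Scl-Ab group (n = 10) came from the same kind of ApoE KO mice with the same AngII pump and weekly subcutaneous Scl-Ab at 10 mg/kg for 4 weeks. The WT group (n = 10) came from wild-type mice that received vehicle alone, by pump and by injection. All libraries are labelled male C57BL/6, with an age of 14 weeks, which the protocol gives as the age at pump implantation in mice on chow. The design text of the series speaks instead of ovariectomized mice on a high-fat diet beside the AngII study, and the labels of the libraries were followed here. The knockout is carried by every cell, WT differs from both other groups in genotype and in AngII, and these 2 differences cannot be told apart. Early deaths, mainly from aortic rupture, were recorded in both ApoE KO groups, so the libraries came from survivors. Since 10 libraries carry the WT label but the protocol lists 9 such mice, n is the number of libraries, and p-values measure the spread between them.

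Notch receptors are cell surface proteins that are cut when a Jagged or Delta-like ligand on a neighbouring cell binds them, and the released intracellular part joins the DNA-binding protein RBPJ to switch on target genes, the HES and HEY repressors among them. In arteries, endothelial cells are known to carry Notch1, Notch4, Dll4, Jag1 and Jag2, and smooth muscle cells Notch2, Notch3, Jag1 and the HEY factors. The pathway is known for arterial identity in the endothelium and for the differentiation of smooth muscle.

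Hey2 showed one of the clearest differences between groups, and its promoter carried a pair of matches to the RBPJ core letters, so it is printed here. The window runs from 250 bases before to 50 bases after the RefSeq start (GRCm38.p6, chr10:30842734-30843033, minus strand), 5′ to 3′, with the matches in capitals.
Hey2: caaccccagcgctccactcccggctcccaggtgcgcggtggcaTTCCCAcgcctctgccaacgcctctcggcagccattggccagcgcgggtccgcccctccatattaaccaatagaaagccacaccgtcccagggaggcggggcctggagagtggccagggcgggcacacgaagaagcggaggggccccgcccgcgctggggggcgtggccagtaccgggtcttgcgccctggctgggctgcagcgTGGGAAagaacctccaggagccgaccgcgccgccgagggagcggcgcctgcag
Capitals mark TGGGAA, read on this strand at window bases 248 to 253, and its reverse complement TTCCCA at bases 44 to 49. Searched on both strands, TGGGAA was held by 8397 of 32851 RefSeq promoter windows of the same length (25.6%) and was present 2 or more times in 1245 (3.79%). The longer form CGTGGGAA, which contains the core, was held by 241 windows (0.734%), and 4 windows held it 2 or more times (0.0122%), Hey2 among them. Of the 8 members with a window in the RefSeq table, Hey2 was the only one that held either form. Windows for Hey1 and Heyl were not used here. A match is a string of letters, and binding was not measured.

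Values are FPKM-like: they are scaled by gene length and can be compared between genes as well as between libraries. Depth was much the same in each library: for a transcript of 2 kb, 31.8 to 43.7 fragments made up a value of 1. With the longest annotated transcript as length, Dll4, the lowest member, rested on about 108 fragments in the median library, and Heyl on about 5254. Apoe was 3.32 to 9.23 in Vehicle, 4.64 to 12.5 with Scl-Ab and 146 to 363 in WT, as the genotype labels require. Contractile smooth muscle genes (12 listed) and endothelial genes (16 listed) were all present in the 29 libraries, as fits an artery. Fold changes below are from limma on log2(value + 1), a scale that understates the change of low genes, with Benjamini-Hochberg adjustment over 13510 tested genes. All 10 members passed the filter on low values. A gene is called when its adjusted p is under 0.05.

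In WT, Heyl, Hey2 and Notch2 stood highest. Heyl averaged 89.0 ± 14.7 (SD, n = 10), Hey2 37.2 ± 2.19, Notch2 19.4 ± 1.38 and Jag1 13.5 ± 1.58, and the ranges of these 4 genes did not overlap. Notch3 (5.32 ± 0.507) and Hey1 (4.83 ± 1.02) came next and overlapped each other. Jag2 (2.08 ± 0.559), Notch1 (2.01 ± 0.439), Notch4 (1.55 ± 0.347) and Dll4 (1.06 ± 0.374) were lowest, with each neighbour in that order within the spread of the next. The plot of the members by library shows each value.

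**Figure D1:**
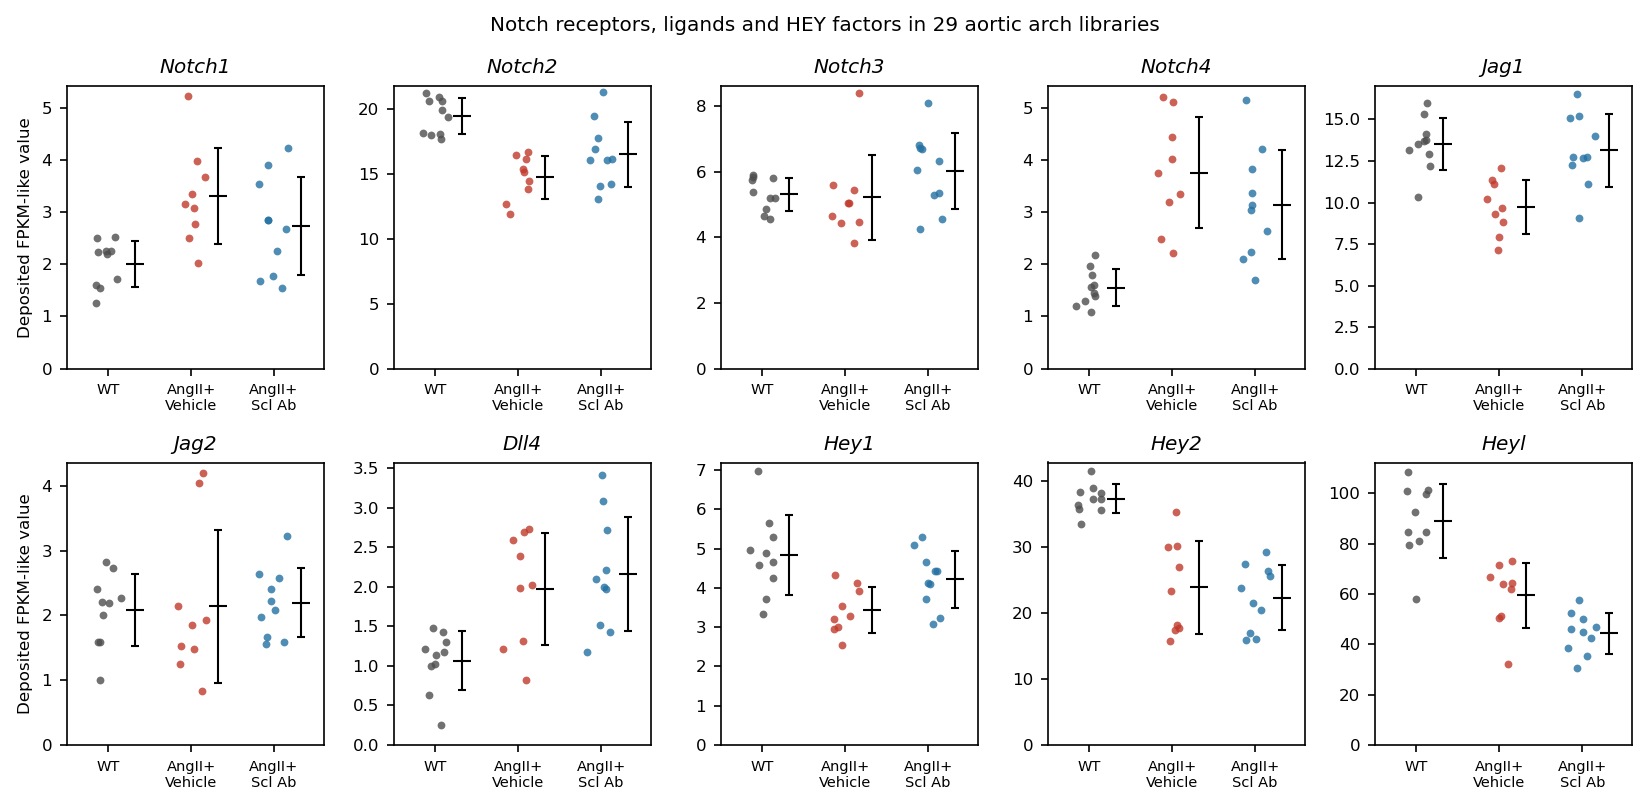
Deposited FPKM-like value (vertical axis, linear, from 0) of each of the 10 genes in WT, AngII+Vehicle and AngII+Scl Ab libraries. Points are libraries (n = 10, 9 and 10), and bars give the mean and SD of a group. Notch2 and Notch4 do not overlap between WT and Vehicle, and Hey2 and Heyl do not overlap between WT and Scl-Ab.

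Against WT, the vehicle-treated disease model had less of the HEY factors, Notch2 and Jag1, and more of Notch1, Notch4 and Dll4. By limma, 8 of the 10 members were called, 3 higher and 5 lower, where 53.7% of all tested genes were called (22.7% higher and 31% lower). Notch3 and Jag2 were not called. Ranges did not overlap for 2 of the 10 members, against 16.8% of tested genes. The median log2 fold change of the members was -0.21, beside -0.04 over all tested genes.

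Among the receptors, Notch4, a receptor found mainly in endothelium (GRCm38 chromosome 17, 34564268 to 34588503, plus strand), differed most. Its values ran from 1.09 to 2.18 in WT (median 1.51), from 2.21 to 5.21 in Vehicle (median 3.76) and from 1.71 to 5.15 with Scl-Ab (median 3.10). Every Vehicle library was thus above every WT library, and 8 of 10 Scl-Ab libraries were too. The difference of Vehicle from WT was 1.83-fold (log2 0.88, SE 0.136, limma adjusted p = 4.79e-06), and that of Scl-Ab from WT was 1.59-fold (log2 0.67, SE 0.132, limma adjusted p = 0.000121).

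Notch1, the main endothelial receptor (chromosome 2, 26457903 to 26516663, minus strand), moved the same way with less separation. It ran from 1.26 to 2.52 in WT (median 2.21), from 2.03 to 5.22 in Vehicle (median 3.14) and from 1.54 to 4.24 with Scl-Ab (median 2.75). Of the 9 Vehicle libraries, 7 were above all WT libraries. Vehicle was 1.42-fold of WT (log2 0.50, SE 0.135, limma adjusted p = 0.00256). For Scl-Ab against WT the log2 difference was 0.28, with a 95% interval of 0.01 to 0.55 and a limma adjusted p of 0.0747, which is not called. It passed after TMM scaling, which rescales each library by the trimmed mean of its log ratios (0.34, limma adjusted p = 0.0427), after scaling all libraries to equal totals (0.32, limma adjusted p = 0.0481), and on leaving out replicate 17, 18 or 19 of Scl-Ab (limma adjusted p = 0.0388, 0.0301 and 0.0376). Of the 8 alternatives other than leaving out a library, only these 2 called Notch1, and the log2 difference ran from 0.05 to 0.38. Of the 20 fits without 1 library, only these 3 did (limma adjusted p = 0.0301 to 0.154).

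Notch2, the most abundant receptor (chromosome 3, 98013527 to 98150361, plus strand), went the other way. In WT it ran from 17.6 to 21.2 (median 19.6), in Vehicle from 11.9 to 16.6 (median 15.1) and with Scl-Ab from 13.1 to 21.3 (median 16.1). All 9 Vehicle libraries were below all WT libraries, and 7 of 10 Scl-Ab libraries were. Vehicle was 0.767-fold of WT (log2 -0.38, SE 0.073, limma adjusted p = 7.60e-05). Scl-Ab was 0.850-fold of WT (log2 -0.23, SE 0.071, limma adjusted p = 0.00731), a call that was lost with TMM scaling (-0.15, limma adjusted p = 0.0648), with equal totals (-0.19, limma adjusted p = 0.0787) and with an adipocyte index, the mean log2 level of 10 adipocyte genes, as covariate (-0.17, limma adjusted p = 0.0501).

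Notch3, the receptor of smooth muscle and pericytes (chromosome 17, 32120820 to 32166852, minus strand), had overlapping ranges in all 3 groups. It ran from 4.56 to 5.91 in WT (median 5.30), from 3.85 to 8.40 in Vehicle (median 5.04) and from 4.27 to 8.10 with Scl-Ab (median 6.19). The 95% intervals of its log2 differences were -0.24 to 0.16 for Vehicle against WT, -0.06 to 0.33 for Scl-Ab against WT and -0.02 to 0.38 for Scl-Ab against Vehicle. None was called. Vehicle replicate 1, at 8.40, stood above the other 8 Vehicle libraries, whose highest value was 5.61.

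The 4 receptors together summed to between 24.9 and 30.9 in WT, between 24.7 and 30.7 in Vehicle and between 25.8 and 30.8 with Scl-Ab. These ranges overlapped over most of their width, while the make-up of the sum differed. Notch2 supplied 68.7 ± 1.76% of the sum in WT, 54.9 ± 8.38% in Vehicle and 58.2 ± 9.09% with Scl-Ab. Notch4 supplied 5.47 ± 1.12% in WT, 13.8 ± 3.42% in Vehicle and 11.1 ± 3.52% with Scl-Ab. The share of Notch1 was 7.03 ± 1.17%, 12.1 ± 2.57% and 9.58 ± 3.21% in the same order, and that of Notch3 stayed between 18.8 and 21.1% on average.

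**Figure D2:**
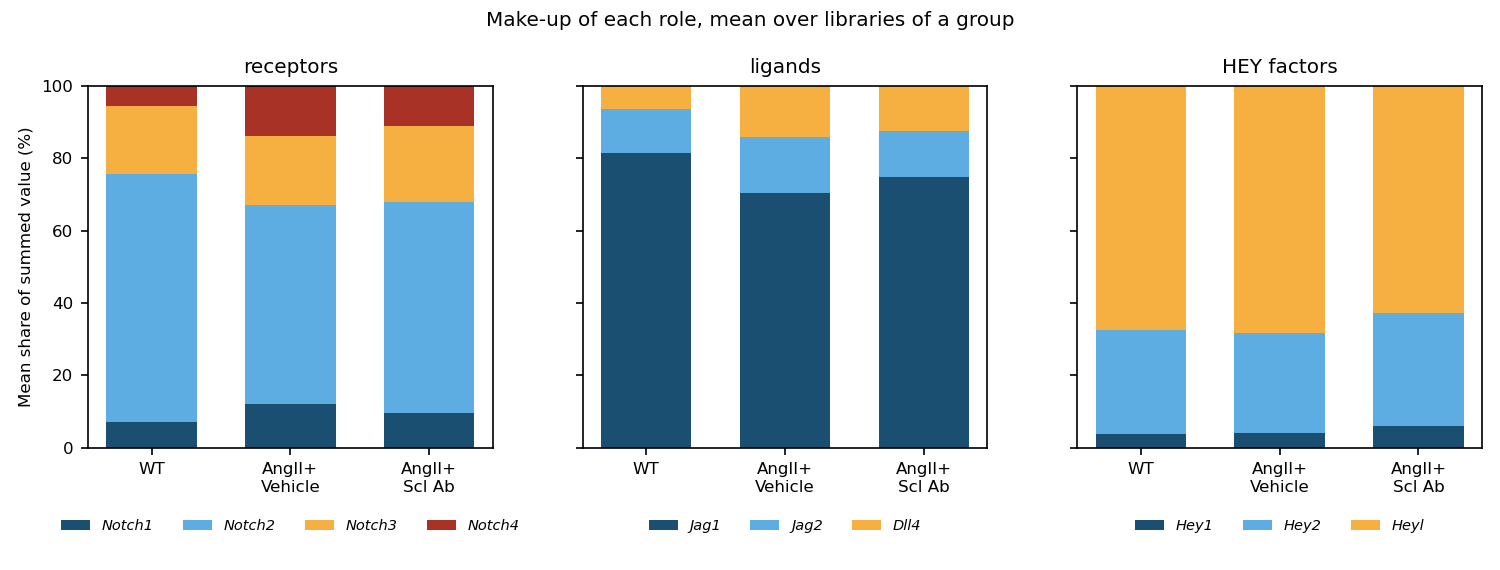
Mean share of the summed value (vertical axis, percent) that each gene supplied to the receptors, the ligands and the HEY factors in WT (n = 10), AngII+Vehicle (n = 9) and AngII+Scl Ab (n = 10). Notch2 supplies 68.7% of receptor signal in WT and 54.9% in Vehicle, and Jag1 supplies 81.4% and 70.5% of ligand signal.

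Jag1, the dominant ligand in these libraries (chromosome 2, 137081456 to 137116644, minus strand), is carried by both endothelium and smooth muscle. It ran from 10.3 to 16.0 in WT (median 13.6), from 7.13 to 12.1 in Vehicle (median 9.67) and from 9.06 to 16.5 with Scl-Ab (median 12.7). Vehicle libraries were low: 9 of 10 WT libraries and 8 of 10 Scl-Ab libraries were above all of them. Vehicle was 0.736-fold of WT (log2 -0.44, SE 0.094, limma adjusted p = 0.000255).

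Dll4, an endothelial ligand of arteries and of sprouting vessels (chromosome 2, 119325784 to 119335962, plus strand), was the lowest member in WT. It ran from 0.254 to 1.48 in WT (median 1.16), from 0.827 to 2.74 in Vehicle (median 2.02) and from 1.18 to 3.41 with Scl-Ab (median 2.05). Of the AngII libraries, 6 of 9 with vehicle and 8 of 10 with Scl-Ab were above all WT libraries. The difference from WT was 1.43-fold in Vehicle (log2 0.51, SE 0.149, limma adjusted p = 0.00485) and 1.52-fold with Scl-Ab (log2 0.61, SE 0.145, limma adjusted p = 0.000919).

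Jag2, a further Jagged ligand (chromosome 12, 112907819 to 112929776, minus strand), had similar medians of 2.20 in WT, 1.84 in Vehicle and 2.15 with Scl-Ab. Its Vehicle libraries spread from 0.839 to 4.19, with 2 of 9 above all WT libraries and 1 below all of them. The log2 difference of Vehicle from WT was -0.03, with a 95% interval of -0.35 to 0.29, and was not called. The ligand sum was 16.6 ± 2.30 in WT, 13.8 ± 1.13 in Vehicle and 17.5 ± 1.95 with Scl-Ab. Jag1 supplied 81.4 ± 3.84% of it in WT, 70.5 ± 11.9% in Vehicle and 74.8 ± 6.83% with Scl-Ab, and Dll4 supplied 6.23 ± 1.86%, 14.1 ± 4.68% and 12.5 ± 4.41%.

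Heyl, a HEY repressor and the most abundant member (chromosome 4, 123233556 to 123249875, plus strand), was lower in both AngII groups. It ran from 57.8 to 108 in WT (median 88.6), from 32.4 to 73.2 in Vehicle (median 63.8) and from 30.4 to 57.8 with Scl-Ab (median 45.4). The highest Scl-Ab library lay just under the lowest WT library, and 9 of 10 WT libraries were above all Vehicle libraries. Vehicle was 0.665-fold of WT (log2 -0.59, SE 0.132, limma adjusted p = 0.000467), and Scl-Ab was 0.504-fold of WT (log2 -0.99, SE 0.128, limma adjusted p = 2.81e-07).

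Hey2, known as a Notch target in arterial endothelium and smooth muscle (chromosome 10, 30832359 to 30842801, minus strand), was steady in WT and wide in the AngII groups. It ran from 33.4 to 41.5 in WT (median 37.2), from 15.7 to 35.2 in Vehicle (median 23.3) and from 15.8 to 29.3 with Scl-Ab (median 22.7). All but 1 Vehicle library and all 10 Scl-Ab libraries were below all WT libraries. Vehicle was 0.628-fold of WT (log2 -0.67, SE 0.132, limma adjusted p = 0.000105), and Scl-Ab was 0.598-fold (log2 -0.74, SE 0.128, limma adjusted p = 2.19e-05).

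Hey1, the third HEY repressor (chromosome 3, 8663359 to 8667256, minus strand), was lower in Vehicle. It ran from 3.33 to 6.98 in WT (median 4.77), from 2.56 to 4.33 in Vehicle (median 3.30) and from 3.07 to 5.30 with Scl-Ab (median 4.28). Of 10 WT libraries, 7 were above all Vehicle libraries. Vehicle was 0.765-fold of WT (log2 -0.39, SE 0.099, limma adjusted p = 0.00171), a call lost with an index of circadian clock genes as covariate (-0.18, limma adjusted p = 0.164). The HEY sum was 131 ± 14.7 in WT, 86.8 ± 14.9 in Vehicle and 71.0 ± 12.8 with Scl-Ab.

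Scl-Ab against WT uses the same WT libraries as Vehicle against WT, so the 2 comparisons are not independent. In it, 5 of the 10 members were called by limma, Notch4 and Dll4 higher and Notch2, Hey2 and Heyl lower, where 50.4% of tested genes were called (19.8% higher and 30.5% lower). Ranges did not overlap for Hey2 and Heyl, against 12.3% of tested genes. The members' median log2 fold change was 0.01, beside -0.06 over all tested genes. Jag1 was 0.969-fold of WT, with a 95% interval of -0.23 to 0.14 on the log2 scale.

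**Figure D3:**
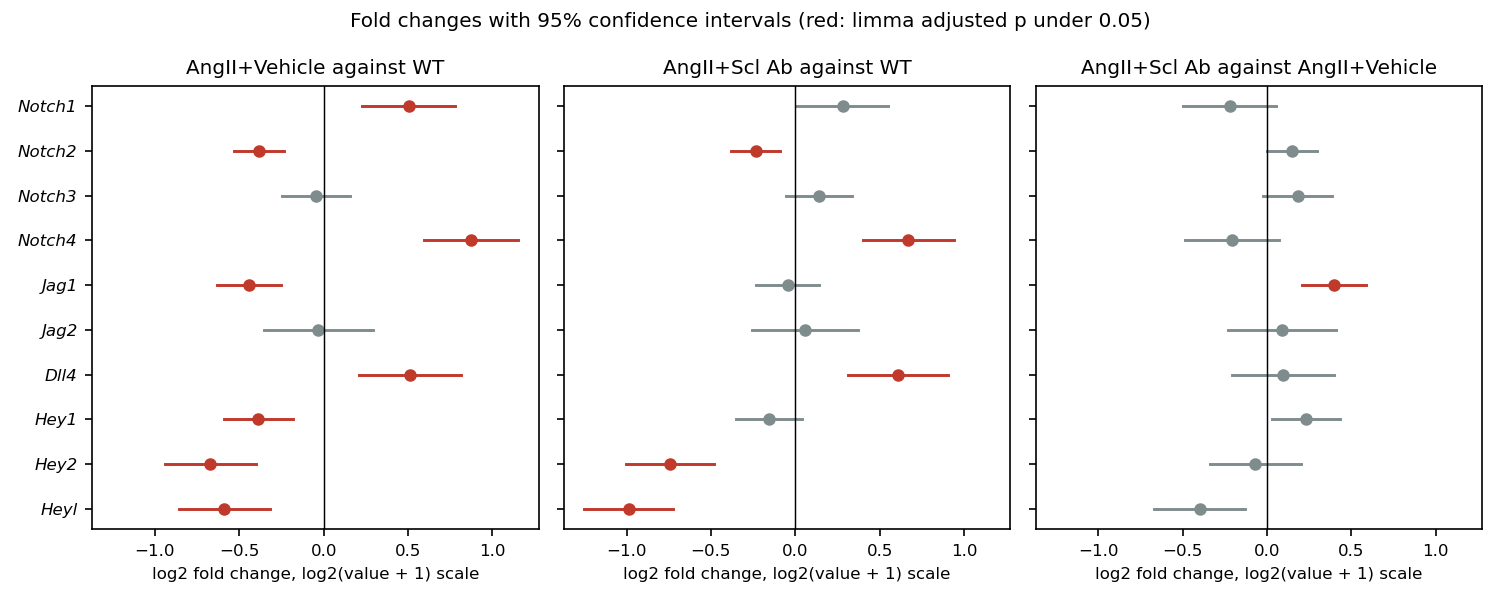
Log2 fold change (horizontal axis, log2(value + 1) scale) of each gene in AngII+Vehicle against WT, AngII+Scl Ab against WT and AngII+Scl Ab against AngII+Vehicle. Points are limma estimates over 29 libraries, lines are 95% confidence intervals, and red marks an adjusted p under 0.05. Red marks 8, 5 and 1 of the 10 genes, and in the last panel Jag1 alone, at 0.40.

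Within the AngII model, Jag1 was higher with Scl-Ab than with vehicle, and no other member passed the test. Jag1 was 1.32-fold of Vehicle (log2 0.40, SE 0.094, limma adjusted p = 0.0130), and 9 of 10 Scl-Ab libraries were above the Vehicle median. This makes 1 of 10 members called, where 7.44% of tested genes were called (2.64% higher and 4.8% lower), a share near the background. None of the members had ranges that did not overlap, against 0.141% of tested genes. The members' median log2 fold change was 0.09, beside -0.01 over all tested genes. This comparison shares its Vehicle libraries with that of Vehicle against WT, in which Jag1 was lower, so a low Vehicle value enters both.

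The Jag1 call was kept without each library in turn (0.35 to 0.45, limma adjusted p = 0.00283 to 0.0272). It was lost with an exact Wilcoxon rank-sum test (adjusted p = 0.0541) and with a clock index as covariate (log2 0.21, limma adjusted p = 0.867). The clock index subtracts the mean log2 level of Arntl and 3 genes of its phase from that of Dbp and 7 genes of the opposite phase, and was 0.58 ± 1.16 in Vehicle, 3.01 ± 0.635 with Scl-Ab and 2.53 ± 1.55 in WT. With it as covariate 3 of all tested genes were called in place of 1005. Within groups Jag1 was higher where the index was higher over the 29 libraries (Pearson r = 0.44, permutation p = 0.01, Spearman rho = 0.55, permutation p = 0.0021, r = 0.42 without the 2 libraries farthest out). Among 150 relations of members to marker lists and this index, the adjusted p of the Jag1 relation was 0.024. The relation was not particular to Jag1. Hey1 (r = 0.57, permutation p = 0.0021, adjusted 0.0082, rho = 0.53, permutation p = 0.0045) and Notch2 (r = 0.45, permutation p = 0.0038, adjusted 0.012, rho = 0.49, permutation p = 0.0058) also rose with the index. The index itself drifted with replicate number in WT, from 0.62 in replicate 20 to 4.34 in replicate 29. The permutations treat libraries of a group as interchangeable, so these p-values do not allow for such a drift. Nor was the index the only measure that Jag1 varied with. It ran against the mean log2 level of 8 cardiac muscle genes (r = -0.53, permutation p = 0.0063, adjusted 0.017, rho = -0.51, permutation p = 0.0084). That mean was 2.68 ± 1.27 in Vehicle and 4.32 ± 1.53 with Scl-Ab, and its part in the Jag1 result was not tested. Collection times are not in the labels, and the part of the clock in the Jag1 result was not tested beyond this covariate.

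Heyl was next, at 0.758-fold of Vehicle (log2 -0.40, SE 0.132, limma adjusted p = 0.0594), with all 10 Scl-Ab libraries below the Vehicle median and 6 of 9 Vehicle libraries above all Scl-Ab libraries. It passed without Vehicle replicate 1 (-0.50, limma adjusted p = 0.00867), without Scl-Ab replicate 13 (limma adjusted p = 0.0488) or 18 (limma adjusted p = 0.0461), and with the adipocyte index as covariate (-0.37, limma adjusted p = 0.0467). Only these 3 of the 19 fits without 1 library called Heyl (limma adjusted p = 0.00867 to 0.116). Only this 1 of the 8 other alternatives did, with log2 differences of -0.56 to -0.37. Hey1 went the other way by 0.23 (95% interval 0.03 to 0.43, limma adjusted p = 0.139). Hey2 differed by -0.07 (95% interval -0.34 to 0.20). For the receptors the intervals were -0.50 to 0.05 for Notch1, -0.00 to 0.30 for Notch2 and -0.48 to 0.07 for Notch4, and none was called.

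Several lists of cell type markers also differed between groups. Of all tested genes, 53.7% were called in Vehicle against WT and 7.44% in Scl-Ab against Vehicle. Of 16 endothelial genes, 12 were higher and none lower in Vehicle against WT, and with Scl-Ab against Vehicle 6 were lower and none higher. Their summed level ran from 208 to 327 in WT, 332 to 472 in Vehicle and 212 to 394 with Scl-Ab. Of 12 contractile smooth muscle genes, 11 were lower in Vehicle against WT, and their sum ran from 18127 to 21936 in WT, 5239 to 17370 in Vehicle and 5798 to 13904 with Scl-Ab. In this bulk tissue, fewer cells of a type and less RNA per cell cannot be told apart. All 11 macrophage genes were higher in Vehicle (sum 1261 to 4144) than in WT (120 to 405). Of 10 adipocyte genes, 2 were higher and none lower, and their sum ran from 427 to 2903 in WT, 705 to 11146 in Vehicle and 942 to 8151 with Scl-Ab, in tissue from which adventitial fat had been scraped. Of 6 pericyte genes tested 5 were lower in Vehicle, of 8 fibroblast genes 4 were higher, of 4 lymphatic endothelial genes 4 were higher, and of 6 microvascular genes none was called. The brown adipocyte list (5 genes) had no call in any comparison. Of 8 cardiac genes 1 was lower in Vehicle against WT and 1 was higher with Scl-Ab against Vehicle, their sum running from 29.8 to 398 in Vehicle and 43.2 to 901 with Scl-Ab. Of 5 red cell genes 2 were lower in Vehicle, of 4 nerve genes 1 was higher and 1 lower, of 2 skeletal muscle genes none was called, and no T and B cell gene was tested. The part of any of these in the member results was not tested beyond what follows.

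Set against the mean log2 level of the endothelial genes in the same library, the endothelial receptors differed less between groups. Notch4 stood 2.10 ± 0.207 below that mean in WT, 1.89 ± 0.193 below in Vehicle and 1.81 ± 0.229 below with Scl-Ab, as log2 differences. For Notch1 the distances below it were 1.86 ± 0.116, 2.02 ± 0.106 and 1.96 ± 0.115, and for Dll4 they were 2.42 ± 0.142, 2.57 ± 0.264 and 2.19 ± 0.161 in the same order. On this log2(value + 1) scale the mean distance of Notch1 below these genes was thus larger in Vehicle than in WT, while its own level was higher. The scale understates the change of low genes such as Notch1 and Dll4, so their distances cannot show a lag behind the endothelial genes. Jag1 stood 0.41 ± 0.225 above the endothelial mean in WT, 0.69 ± 0.457 below it in Vehicle and 0.01 ± 0.535 below it with Scl-Ab. Against the contractile smooth muscle genes the order of WT and Vehicle turned, with Jag1 4.76 ± 0.195 below their mean in WT, 4.44 ± 0.348 below in Vehicle and 3.86 ± 0.539 below with Scl-Ab. Against the same genes, Heyl was 2.14 ± 0.287 below in WT, 1.97 ± 0.371 below in Vehicle and 2.19 ± 0.269 below with Scl-Ab, while Notch2 was 4.26 ± 0.154, 3.88 ± 0.310 and 3.55 ± 0.373 below. These distances are descriptions and carry no test.

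Within groups, Notch1, Notch4, Dll4, Jag2 and Notch3 rose and fell together across libraries, and Hey2 moved against them. Over 29 libraries with group means removed, Notch1 followed Notch4 (Pearson r = 0.87, permutation p = 1e-05, Spearman rho = 0.86, permutation p = 1e-05) and Dll4 (r = 0.87, permutation p = 1e-05, rho = 0.89, permutation p = 1e-05). These p-values are the smallest that 100000 permutations can give, and over the 45 pairs of members they adjust to 0.00015 for r and 0.00022 for rho. Without the 2 libraries farthest out r was 0.84 and 0.85. Notch2 ran against Notch4 (r = -0.71, permutation p = 0.00017, rho = -0.63, permutation p = 0.0011, adjusted 0.00096 and 0.0053, r = -0.63 without the 2 farthest), and with Hey2 (r = 0.61, permutation p = 0.0026, rho = 0.56, permutation p = 0.0052, adjusted 0.0077 and 0.018, r = 0.52 without them). Jag1 was tied to Notch2 (r = 0.58, permutation p = 0.0029, rho = 0.58, permutation p = 0.0025, adjusted 0.0082 and 0.0095, r = 0.65 without them). Values of 1 library share its depth and scaling, and its mix of cells. Some members drifted with replicate number, which the permutations do not allow for. In Scl-Ab replicates 10 to 12 Notch1 was 3.53 to 4.24 and Notch2 13.1 to 14.2, and in replicates 17 to 19 they were 1.54 to 1.78 and 17.7 to 21.3.

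**Figure D4:**
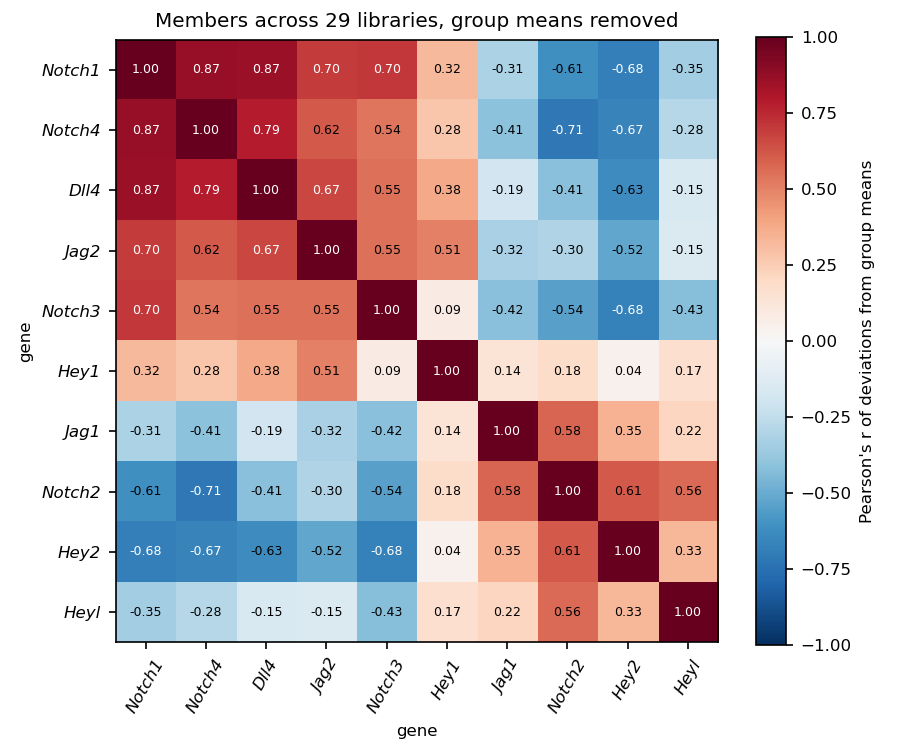
Pearson's r (colour and number) between each pair of the 10 genes over 29 libraries, from log2(value + 1) with the mean of its group removed. Notch1, Notch4, Dll4, Jag2 and Notch3 form a block with r of 0.54 to 0.87, and Hey2 has r of -0.52 to -0.68 with each of them.

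Some members also varied with some of the marker lists. No member was tied to the macrophage mean, with Dll4 nearest (r = 0.35, permutation p = 0.079, adjusted 0.13). Notch1 followed the endothelial mean (r = 0.94, permutation p = 1e-05, rho = 0.96, permutation p = 1e-05, r = 0.93 without the 2 farthest), Dll4 followed the endothelial mean too (r = 0.83, permutation p = 1e-05, rho = 0.82, permutation p = 1e-05, r = 0.77 without them), and Hey2 followed the contractile mean (r = 0.86, permutation p = 1e-05, rho = 0.82, permutation p = 3e-05, r = 0.86 without them). Over the 150 relations these p-values adjust to 0.00017 for r, and to 0.00019 for rho, or 0.00037 for Hey2. Dll4 was about as close to the microvascular (r = 0.84, permutation p = 1e-05, rho = 0.85, permutation p = 1e-05, r = 0.83 without them), brown adipocyte (r = 0.81, permutation p = 1e-05, rho = 0.82, permutation p = 1e-05, r = 0.74 without them) and adipocyte means (r = 0.79, permutation p = 1e-05, rho = 0.80, permutation p = 1e-05, r = 0.78 without them). Heyl was less close to the contractile mean (r = 0.53, permutation p = 0.009, rho = 0.30, permutation p = 0.13), and its r fell to 0.15 without the 2 farthest libraries, so that relation rests on them. Notch3 ran against the contractile mean (r = -0.66, permutation p = 0.0023, rho = -0.39, permutation p = 0.064). It ran with the lymphatic endothelial (r = 0.74, permutation p = 2e-05, rho = 0.73, permutation p = 7e-05), endothelial (r = 0.63, permutation p = 0.00037, rho = 0.62, permutation p = 0.0009) and pericyte means (r = 0.49, permutation p = 0.0075, rho = 0.42, permutation p = 0.022). Notch3 was not particular to these lists. Its r was 0.65 with the microvascular, 0.60 with the adipocyte and 0.59 with the brown adipocyte mean. With the T and B cell, fibroblast and cardiac means it was 0.58 each (permutation p = 0.00034 to 0.0067 for these further lists). Vehicle replicate 1, with the highest adipocyte index of its group (8.36), was highest of its group for Notch1, Notch3, Notch4 and Jag2 and lowest for Notch2, Hey2 and Heyl. Its endothelial (4.53), fibroblast (8.68) and cardiac (4.88) means were the highest of its group too, and its contractile mean (6.93) was the lowest. Vehicle replicate 5, with the lowest index (4.95), was lowest for Notch1, Notch3, Notch4, Jag2, Dll4 and Hey1 and highest for Notch2 and Hey2. Its endothelial mean (3.83) was the lowest of its group too, and its contractile mean (8.39) was the highest. WT replicate 20 (index 3.45) was the lowest WT library for 8 of the 10 members. With the adipocyte index as covariate, Notch1, Notch4 and Dll4 were called higher and Notch2, Jag1, Hey1, Hey2 and Heyl lower in Vehicle against WT.

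**Figure D5:**
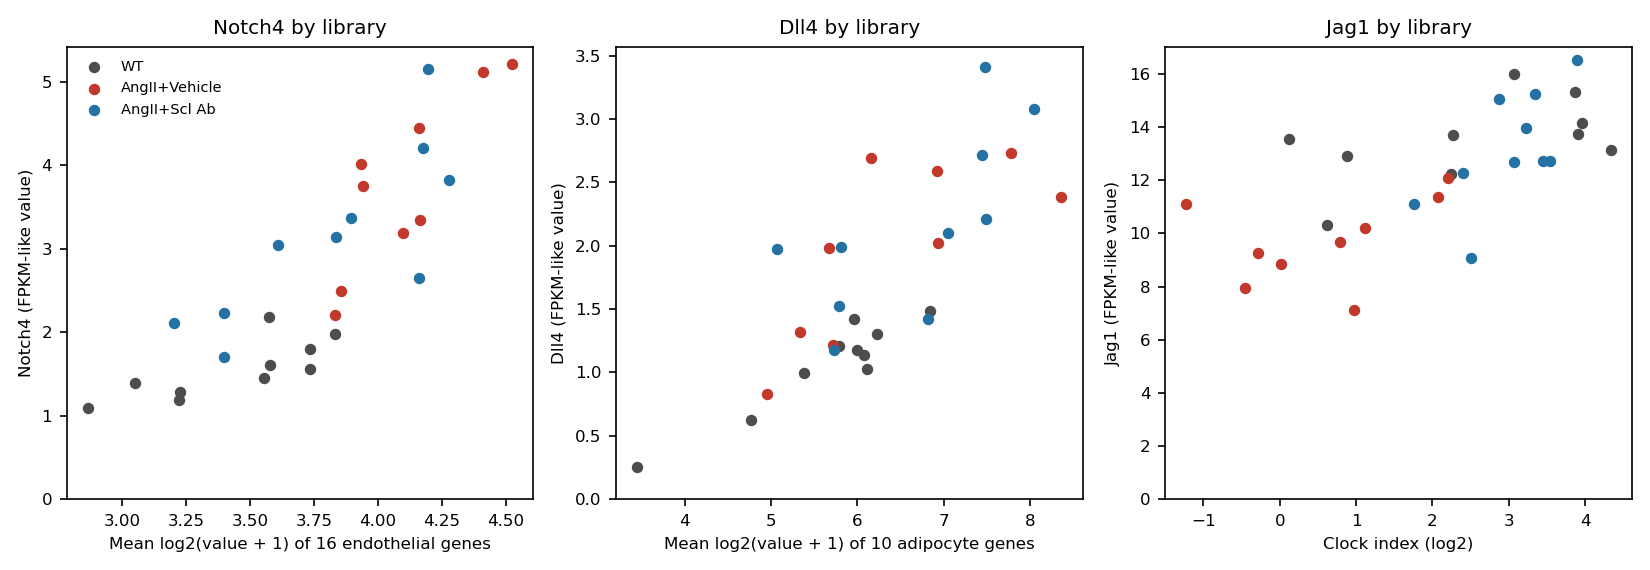
Notch4 against the mean log2(value + 1) of 16 endothelial genes, Dll4 against that of 10 adipocyte genes, and Jag1 against the clock index, one point per library, coloured by group (WT n = 10, AngII+Vehicle n = 9, AngII+Scl Ab n = 10). Vertical axes are FPKM-like values from 0. Vehicle libraries lie at 2.20 or below on the clock axis and Scl-Ab libraries at 1.76 or above.

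Genes whose within-group pattern over the 29 libraries was most like a member were taken from 12331 tested genes. For Notch1 these were Afap1l1 (r = 0.95), Prkch and Lmo7, for Notch4 they were Notch1 (r = 0.87), Itpr2 and Il6ra, and for Dll4 Hspa12b (r = 0.88), Unc45b and Adgrf5. Jag2 was most like Higd1b (r = 0.85), Sox17 and Mcf2l, and Jag1 most like Arhgap17 (r = 0.76), Cxxc5 and Pdgfrb, a receptor of mural cells. Notch2 was most like Brd7 (r = 0.84), Abcc1 and Adcy7, and Notch3 most like Pag1 (r = 0.83), Lrrc8b and Angpt1. Among the HEY factors Hey1 was most like Tcap (r = 0.71), Pnmt and Ciart, and Hey2 most like Traf5 (r = 0.89), Tspan5 and Atg4b. These are the highest of many values and are given as a description.

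The rest of the pathway was read from 76 listed genes, of which 65 were tested. In Vehicle against WT 27 were higher, 18 lower and 20 not called, and in Scl-Ab against Vehicle 3 were higher, 3 lower and 59 not called. The shares called were 69.2% and 9.23%, beside 53.7% and 7.44% of all tested genes. Without the 12 arterial endothelial genes, 18 were higher and 17 lower in Vehicle against WT. In the 7 groups of these genes, those beyond the fixed rule are named after their values were seen. Among other ligands, Dll1 and Egfl7, a secreted endothelial protein, were tested and neither was called (log2 0.05 and 0.38 in Vehicle against WT, limma adjusted p = 0.747 and 0.102). The other 5, Dll3, Dlk1, Dlk2, Dner and Cntn1, were below the filter.

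Of 13 genes that activate ligands or cut receptors, 7 were higher and 3 lower in Vehicle against WT. This was 76.9% called, beside 53.7% of all tested genes. Adam10, the protease that makes the first activating cut at the cell surface, was 25.4 ± 2.58 in Vehicle and 16.0 ± 1.33 in WT (log2 0.63, SE 0.072, limma adjusted p = 3.2e-08). Adam17, a related protease, was 15.5 ± 1.67 and 11.3 ± 0.548 (log2 0.43, SE 0.069, limma adjusted p = 8.1e-06). Lower genes included Mib2, a ligase that readies ligands, and the γ-secretase gene Psenen (log2 -0.60 and -0.25). With Scl-Ab against Vehicle Aph1b, another γ-secretase gene, was lower (log2 -0.26, SE 0.056, limma adjusted p = 0.0067).

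The Fringe enzymes, which add sugars that tune the response of a receptor to Delta-like or Jagged ligands, split. Lfng was 5.29 ± 0.887 in Vehicle and 1.86 ± 0.448 in WT (log2 1.14, SE 0.139, limma adjusted p = 9.5e-08), and Mfng was 6.35 ± 1.67 and 2.88 ± 1.11 (log2 0.95, SE 0.181, limma adjusted p = 7.8e-05). Rfng was lower (log2 -0.50). Of the 5 glycosylation genes 3 were higher and 1 lower, or 80% called beside 53.7% of all tested genes. With Scl-Ab against Vehicle none was called, Pofut1 being nearest (-0.14, limma adjusted p = 0.085).

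Among 16 nuclear partners of Notch, 2 were higher, 5 lower and 9 not called in Vehicle against WT, a share called of 43.8% beside 53.7% of all tested genes. Rbpj itself differed by -0.06 and was not called. Kat2a, a histone acetyltransferase, and the corepressor Tle4 were lower (log2 -0.31 and -0.20). With Scl-Ab the corepressor Tle3 was lower than in Vehicle (-0.23, limma adjusted p = 0.015) and the acetyltransferase Ep300 was higher (0.16).

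All 7 tested genes of the list of other targets were called in Vehicle against WT, 3 higher and 4 lower, where 53.7% of all tested genes were called. Whether each of them answers to Notch in this tissue was not tested. The higher ones were Ccnd1, a cyclin (12.1 ± 4.26 against 3.56 ± 1.55, log2 1.53), the growth regulator Myc (log2 1.06) and the feedback inhibitor Nrarp (log2 0.45). The lower ones were Hes1, Hes6, Dtx1 and Id1 (log2 -0.38, -0.40, -0.45 and -0.64). None of the 7 was called with Scl-Ab against Vehicle, Hes6 having the smallest p in the list (-0.07, limma adjusted p = 0.702). Hes2, Hes3, Hes5 and Hes7 of the same list were below the filter, and Hes5 was listed at 0 in all 29 libraries.

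Of 10 genes listed as negative regulators, Deltex-family genes among them, 3 were higher and 4 lower in Vehicle against WT. This was 70% called beside 53.7% of all tested genes. The direction in which each acts on Notch in this tissue was not tested. Dtx3, a Deltex-family ligase, was 70.8 ± 12.6 in Vehicle and 125 ± 16.8 in WT (log2 -0.81), and Dtx4 was 5.83 ± 1.19 and 2.57 ± 0.998 (log2 0.96). Numbl, a relative of the Notch inhibitor Numb, was the one call of this list with Scl-Ab against Vehicle (log2 0.32, SE 0.092, limma adjusted p = 0.033), at 17.3 ± 3.29 against 13.6 ± 1.83.

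Of 12 genes known from arterial endothelium, 9 were higher and 1, the ephrin Efnb2, was lower in Vehicle against WT. This was 83.3% called, beside 53.7% of all tested genes. Cxcr4, a chemokine receptor that leukocytes also carry, was 6.68 ± 2.15 in Vehicle and 0.523 ± 0.141 in WT (log2 2.29). Gja4, the gap junction gene of arterial endothelium, was 31.8 ± 8.71 in Vehicle, 20.1 ± 3.51 with Scl-Ab and 12.4 ± 1.99 in WT. It was higher in Vehicle than in WT (log2 1.26, SE 0.125, limma adjusted p = 2.7e-09) and lower with Scl-Ab than in Vehicle (log2 -0.61, SE 0.125, limma adjusted p = 0.0062). Most of the endothelial marker genes were higher in Vehicle too, as given above, and their part in these values was not tested.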

How the data were processed

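RNA from the aortic arch was sequenced as stranded mRNA libraries, per the labels' protocols. The deposited values are FPKM-like (a column named FPKQ per the file headers, a name not spelled out there), 1 per gene symbol and library. GRCm 38 and DESeq2 1.10.1 are named, without their roles, per the submitters' processing notes. How reads were aligned and counted, and whether by strand, is not given in the sources used here. Of low values, 72.4 to 75.6% lay within 0.05 of whole fragment steps, so counts were not recovered. Sums of values ran from 496126 to 678907.

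Groups came from the labels. The test was limma (3.58.1, under R 4.3.3), with its trend and robust options and 3 group means fitted over 29 libraries, on log2(value + 1). It covered the 13510 genes that reached 1 in 9 or more libraries, with Benjamini-Hochberg adjustment. On simulated data with 50 genes changed per fold size among 13510, 58, 80 and 98% were recovered at 1.25, 1.5 and 2-fold for Vehicle against WT, and 62, 78 and 94% for Scl-Ab against Vehicle. Folds were added on the log2(value + 1) scale, where a given fold is a larger change in the value of a low gene. Noise was drawn independently for each gene, unlike in real libraries, so these shares can overstate the recovery of low members. Far fewer genes were changed there than the 7255 called in Vehicle against WT. With few changed genes the adjustment is stricter, which can understate recovery. The smallest root mean square log2 difference between libraries of a group was 0.235, so no 2 files were identical, which does not exclude 2 libraries of 1 mouse. Correlations used values with group means removed and 100000 permutations within groups, two-sided. The permutations take libraries of a group as interchangeable, without regard to replicate number. Gene coordinates came from GENCODE M21 (GRCm38) and promoters from RefSeq (GRCm38.p6), which held 8 of the 10 members, by symbol.

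By rule, the members, Apoe, the 2 genes with the smallest p in Vehicle against WT and the 1 with the smallest p in Scl-Ab against Vehicle of each pathway list, and the 3 genes most like each member are named, except for a few results that are not reported here. The members and lists were chosen with earlier results of these data known. Alternatives were another pseudocount (0.1), no filter, TMM scaling (unweighted, on the deposited values), equal totals, a fit of 2 groups, an exact Wilcoxon test, adipocyte and clock indices as covariates, and leaving out each library.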

Additional observations from a re-analysis of the deposited data

Results flagged for a closer look

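Notch3 in Vehicle replicate 1 was 8.40, while the other 8 Vehicle libraries lay between 3.85 and 5.61, so the gap to its nearest neighbour took 0.613 of the range of its group. It was 1 of 30 combinations of a member and a group that stood out in this way, and chance alone gives about 1 in 20. This library also had the highest adipocyte index of its group, 8.36. Its endothelial (4.53), fibroblast (8.68) and cardiac (4.88) means were the highest of its group too, and its contractile mean (6.93) was the lowest. The part of any of these in the value was not tested. Without this library the log2 difference of Notch3 was -0.12 in Vehicle against WT (limma adjusted p = 0.246) and 0.26 in Scl-Ab against Vehicle (limma adjusted p = 0.0530), neither called.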

How the results depend on the processing

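In Vehicle against WT 8 members were called in each alternative except the clock covariate (7, without Hey1), and in Scl-Ab against WT 4 to 6 were. In Scl-Ab against Vehicle 1 member was called, and 0 by the exact Wilcoxon test, 0 with the clock covariate, 3 with the adipocyte covariate (Jag1, Notch1 at -0.28 with limma adjusted p = 0.0451, and Heyl) and 1 to 2 when each library was left out. Over all tested genes that comparison called 1005, and 447 with no filter, 367 with equal totals, 309 in a fit of the 2 groups alone, 413 by the Wilcoxon test, 1585 with the adipocyte covariate, 3 with the clock covariate and 546 to 1223 when each library was left out (546 without Vehicle replicate 2, 606 without 6 and 628 without 5). The share of calls that were higher was 42.2% in Vehicle against WT and 52.8% with TMM scaling, 35.4% in Scl-Ab against Vehicle and 48.3% with TMM or 65.4% with equal totals, and 39.4% in Scl-Ab against WT and 54.7% with TMM. Signs turned for uncalled members alone. In Vehicle against WT these were Notch3 (0.016) and Jag2 (0.016) with TMM and Jag2 with the clock covariate (0.10). In Scl-Ab against WT they were Jag1 with TMM (0.038) and Jag2 with the adipocyte covariate (-0.21). In Scl-Ab against Vehicle, with the clock covariate, they were Jag2 (-0.075), Dll4 (-0.051) and Hey1 (-0.027), while Hey1 passed in Scl-Ab against WT (-0.21, limma adjusted p = 0.0398). Leaving out 1 library turned Jag2 in Vehicle against WT (range -0.13 to 0.055) and in Scl-Ab against WT (-0.0093 to 0.095), Hey2 in Scl-Ab against Vehicle (-0.14 to 0.0040) and Jag1 in Scl-Ab against WT (-0.084 to 0.0079). The cause was not tested. No paired analysis was possible because the groups share no replicate numbers. Titles also hold a code that no source explains, some of whose last digits recur in Vehicle and Scl-Ab, and it was not used. Depth limits Dll4 most, with a median of about 108 fragments a library.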
